A study of Saccharomyces cerevisiae with 28 samples.

Results

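Trehalose metabolism in budding yeast (Saccharomyces cerevisiae) was followed through the transcripts of 7 genes, taken by their systematic names from the 6692 genes listed in each library. Synthesis was represented by 4 genes, TPS1 (YBR126C), TPS2 (YDR074W), TPS3 (YMR261C) and TSL1 (YML100W), and breakdown by 3, NTH1 (YDR001C), NTH2 (YBR001C) and ATH1 (YPR026W). RNA was sequenced from the strain YL390 at 0.2% glucose and from the strain YL388 at 9 glucose concentrations (0.0125, 0.02, 0.025, 0.05, 0.075, 0.1, 0.15, 0.2 and 0.4%), with 1 library each. All cultures grew in synthetic minimal medium, first with 0.2% glucose and then for 2 h at the stated concentration. The labels give the strains by number only and state no genotype. The study asked how the relative timing of pulses of transcription factor activity sets gene expression. It is known to have followed Msn2, which switches on stress genes, and Mig1, which shuts off genes for the use of other sugars while glucose is plentiful. A further 18 libraries of transient stress were not analysed here.

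Trehalose is a disaccharide made of glucose units that yeast stores as a reserve carbohydrate and that protects proteins and membranes during heat, drying and starvation. Tps1 joins UDP-glucose and glucose-6-phosphate into trehalose-6-phosphate, and Tps2 removes the phosphate. Tps3 and Tsl1 are large regulatory subunits of the same complex and are paralogs of each other. Nth1 is the main neutral trehalase of the cytosol and is switched on by phosphorylation through protein kinase A and binding of the Bmh proteins. Nth2 is its paralog, and Ath1 is the acid trehalase, which acts on trehalose outside the cell. Stress elements, the binding sites of Msn2 and its paralog Msn4, are known from the promoters of several of these genes.

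All 7 genes had an identical position in the files and in the RefSeq annotation of the R64 assembly, and none overlapped another gene in the files. TPS1 lies on chromosome II from 488905 to 490392, TPS2 on chromosome IV from 593893 to 596583, TPS3 on chromosome XIII from 790205 to 793369 and TSL1 on chromosome XIII from 70624 to 73920 (sacCer3, counted from 1). NTH1 lies on chromosome IV from 450220 to 452475, NTH2 on chromosome II from 238941 to 241283 and ATH1 on chromosome XVI from 615379 to 619014. The genes measure between 1488 bp (TPS1) and 3636 bp (ATH1). The coding sequences of TSL1 and TPS3 were 67.9% identical over their aligned bases, with a longest shared run of 15 bases. Those of NTH2 and NTH1 were 73.4% identical, with a longest shared run of 33 bases. By the same measure TPS2 and TPS1 were 70.4% identical over 1473 aligned bases, with a longest shared run of 11 bases. The percentage alone thus does not set TSL1 and TPS3 apart.

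The promoters differed in how many matches to the core of the stress element they held. The core was searched as AGGGG on both strands, in the 300 bases that lie from 400 to 101 bases before the start codon, read from the R64 genome. TSL1 and TPS1 had 5 matches each, and only 0.133% of 6001 promoters had 4 or more in this window. NTH1 had 3 matches (3 or more in 0.817% of promoters), TPS3 had 2 (2 or more in 4.12%), TPS2 and ATH1 had 1 each (1 or more in 23.5%), and NTH2 had 0. In the wider window of the 600 bases before the start codon, TPS2 had 5 matches and TPS1 had 6, while the counts of the other 5 genes were unchanged. In that window 0.65% of 5999 promoters had 4 or more, and 39.7% had 1 or more. The core of the Mig1 site was searched in the narrower window on both strands as GGGG after CC, CT, GC or GT. It matched 3 times before TSL1 (3 or more in 0.267% of promoters), and 2 of these matches shared bases with a stress element match. TPS1 and NTH2 had 1 match each (1 or more in 14.8% of promoters), and the other 4 genes had 0. The TSL1 window overlaps the annotated frame YML100W-A and the TPS3 window overlaps YMR262W. A match describes these letters and does not show binding.

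The windows of the genes with the most matches, TSL1 and TPS1, and of the trehalase paralogs NTH1 and NTH2 are shown 5′ to 3′ on the strand of the gene, with the stress element matches in capitals. They are chrXIII:70224-70523 (TSL1, plus strand), chrII:490493-490792 (TPS1, minus strand), chrIV:452576-452875 (NTH1, minus strand) and chrII:241384-241683 (NTH2, minus strand) of R64, from RefSeq.
TSL1: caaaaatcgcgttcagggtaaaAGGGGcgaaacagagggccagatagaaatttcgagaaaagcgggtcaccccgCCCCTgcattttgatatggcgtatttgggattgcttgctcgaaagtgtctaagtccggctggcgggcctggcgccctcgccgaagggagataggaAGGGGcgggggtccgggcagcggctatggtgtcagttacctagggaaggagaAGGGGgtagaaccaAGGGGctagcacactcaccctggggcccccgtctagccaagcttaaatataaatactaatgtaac
TPS1: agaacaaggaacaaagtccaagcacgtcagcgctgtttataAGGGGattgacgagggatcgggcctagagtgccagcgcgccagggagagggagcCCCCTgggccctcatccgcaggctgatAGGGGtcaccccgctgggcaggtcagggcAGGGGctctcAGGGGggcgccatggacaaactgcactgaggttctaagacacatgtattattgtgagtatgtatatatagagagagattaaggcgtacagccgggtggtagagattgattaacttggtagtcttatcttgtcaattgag
NTH1: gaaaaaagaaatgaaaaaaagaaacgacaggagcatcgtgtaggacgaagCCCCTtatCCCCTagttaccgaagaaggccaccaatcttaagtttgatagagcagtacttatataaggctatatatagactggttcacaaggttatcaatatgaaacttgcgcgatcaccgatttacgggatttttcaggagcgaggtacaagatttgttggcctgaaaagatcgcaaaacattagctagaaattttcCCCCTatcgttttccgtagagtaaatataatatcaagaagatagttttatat
NTH2: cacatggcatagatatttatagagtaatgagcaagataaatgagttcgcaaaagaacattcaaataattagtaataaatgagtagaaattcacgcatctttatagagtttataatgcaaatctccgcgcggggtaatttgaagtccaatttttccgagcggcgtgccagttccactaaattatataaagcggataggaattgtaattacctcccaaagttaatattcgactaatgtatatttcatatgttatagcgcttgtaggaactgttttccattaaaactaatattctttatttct

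**Figure D1:**
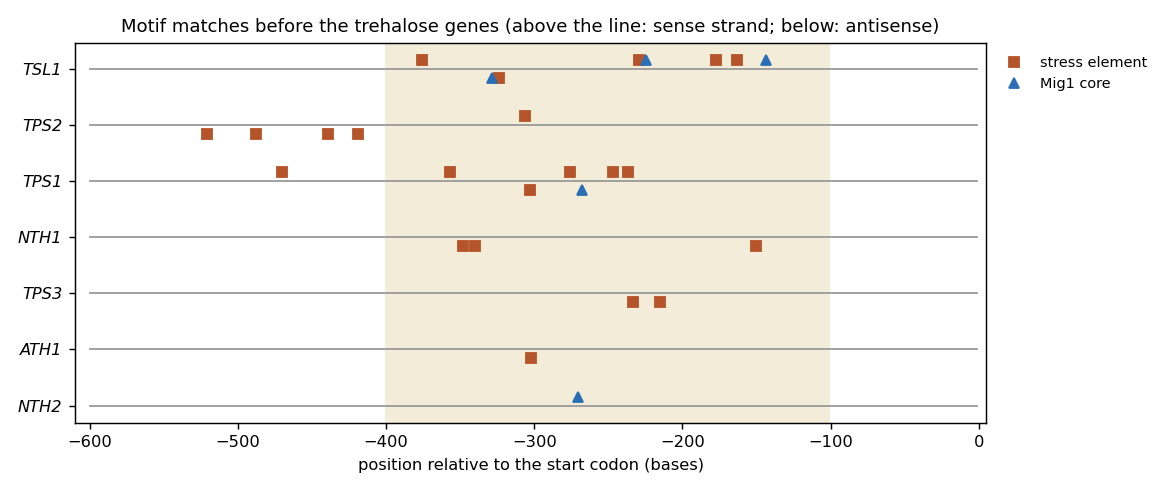
Positions of motif matches (x axis, bases relative to the start codon) before each of the 7 genes, with squares for stress elements, triangles for Mig1 cores, and the window from 400 to 101 bases shaded. Genes run from the one lowest in the YL390 library relative to the YL388 curve (TSL1, top) to the highest (NTH2, bottom).

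Levels were deposited as FPKM, the number of sequenced fragments scaled by gene length and by library size, each between 2 confidence bounds. Between 6111 and 6158 genes were above 0 in a library, and reading each bound as 2 Poisson standard deviations from the centre gave a depth of 5.92 M to 9.21 M fragments per library. For the 7 genes the distance from the centre of the bounds to either bound was 3.7 to 12.4% of the centre, which covers counting error only. The FPKM itself was 1.00 to 1.15 times the centre of its bounds, with the highest ratios for TPS1. By the centres, the level of TPS1 relative to the others would be lower by up to that factor. Which of these values is nearer the true level was not tested. No concentration was repeated and nothing states that the cultures were independent, so p-values below rest on the scatter of the YL388 libraries around a line or curve.

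TPS1 was the most abundant of the 7 transcripts per length in all 10 libraries and ATH1 the least abundant, although in YL390 the bounds of ATH1 and TSL1 overlapped. Across the YL388 libraries TPS1 lay between 176 and 358 FPKM and ATH1 between 8.32 and 25.1 FPKM. Between them, TSL1 (59.1 to 169 FPKM), TPS2 (60.4 to 153 FPKM) and NTH1 (58.3 to 103 FPKM) came before NTH2 (36.6 to 50.7 FPKM) and TPS3 (28.1 to 35.2 FPKM). The order of TSL1 and TPS2 was not settled. TSL1 was the higher in FPKM in 6 of 9 YL388 libraries, but their bounds were apart with TSL1 higher in 0. At 0.4% glucose the bounds were apart with TPS2 higher. The FPKM was 1.05 to 1.09 times the centre of its bounds for TSL1 and 1.02 to 1.03 times for TPS2. By the centres, TPS2 was the higher at 0.1, 0.05 and 0.025% as well. TPS2 was above NTH1 in 9 of 9 libraries, with bounds apart in 5. Every other neighbour in this order was separated beyond its bounds in 9 of 9 YL388 libraries.

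**Figure D2:**
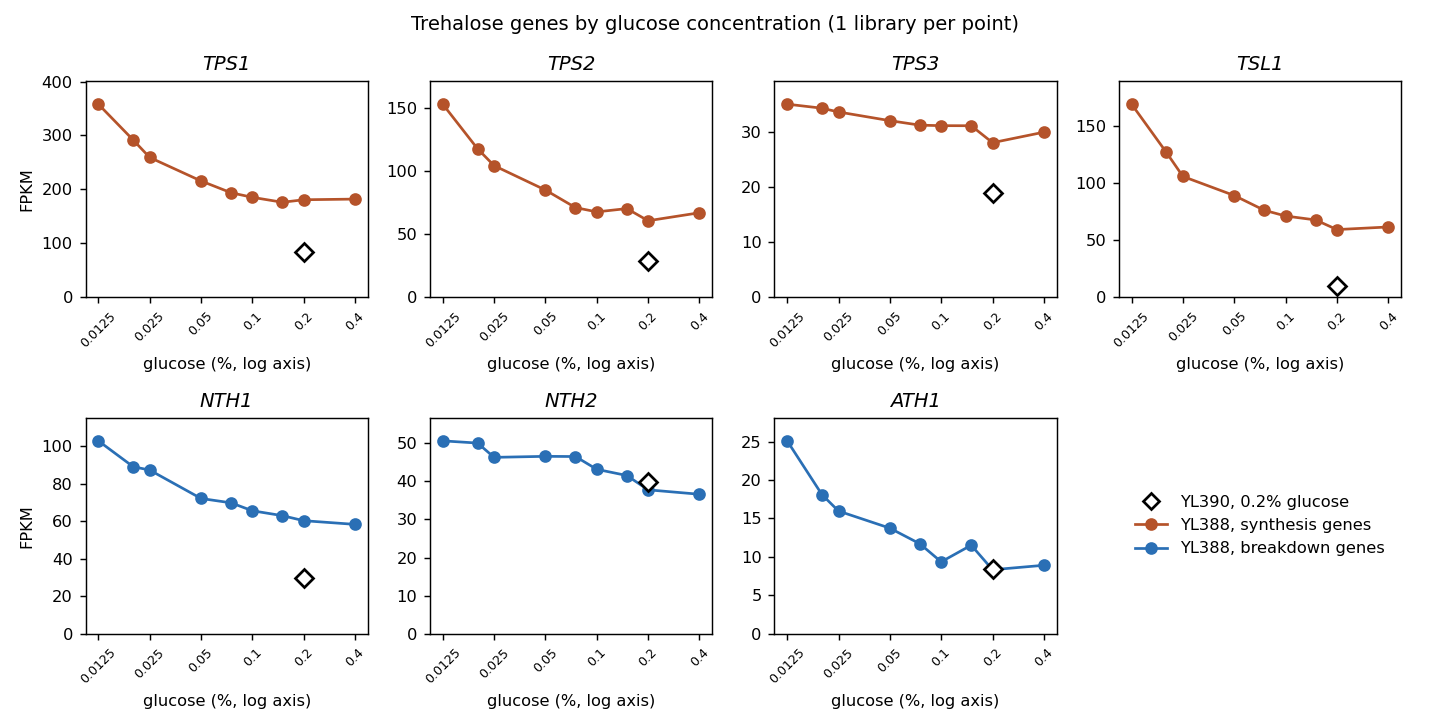
FPKM (y axis, linear from 0) against glucose (x axis, percent, log axis) for each gene, 1 library per point, with YL390 as an open diamond and YL388 as filled circles. TPS1, TPS2, TSL1 and ATH1 climb most at the lowest concentrations, and the diamond lies under the whole YL388 line for TPS1, TPS2, TPS3, TSL1 and NTH1.

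All 7 trehalose genes were higher at low glucose. Each rose significantly along the 9 YL388 libraries, and 4 of them (TPS1, TPS2, TSL1 and ATH1) at least 2-fold, with TPS1 just inside at 2.01-fold. TPS1 was under 2-fold with median-of-ratios scaling (change 0.89), quantile normalization (0.82) or a pseudocount of 10 (0.97), and with that pseudocount ATH1 was too, at 0.86 against 1.38. Of the 6121 genes tested, 47.3% were called, 31.6% as higher and 15.7% as lower, and 7.52% were called and at least 2-fold higher. The change is the fitted level at 0.0125% minus that at 0.4% glucose, from a straight line on log2 glucose through log2(FPKM + 1). Its median over the 7 genes was 1.01, beside 0.12 over all genes tested. The deposited scaling carries that general shift of 0.12, which median-of-ratios scaling removes, and all 7 genes stayed called after its removal. Genes of synthesis and of breakdown moved in the same direction.

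The regulatory subunit gene TSL1 and the trehalase gene ATH1 had the largest changes, which lay within their SE of each other. TSL1 stood at 169, 127, 106, 88.9, 76.0, 71.0, 67.5, 59.1 and 61.3 FPKM at 0.0125, 0.02, 0.025, 0.05, 0.075, 0.1, 0.15, 0.2 and 0.4% glucose. The level declined at every step up in glucose but the last, and the fitted change was 1.46 ± 0.16 (SE, n = 9 libraries; limma adjusted p = 0.000294), a 2.75-fold difference. Its paralog TPS3 moved least. TPS3 stood at 35.2, 34.4, 33.7, 32.2, 31.3, 31.2, 31.2, 28.1 and 30.1 FPKM over the same concentrations, a change of 0.27 ± 0.06 (limma adjusted p = 0.00665). Its change was 0.15 with median-of-ratios scaling (limma adjusted p = 0.0488), and the call was lost under quantile normalization, at 0.10 (limma adjusted p = 0.142).

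The catalytic subunit genes lay between these paralogs. The synthase gene TPS1 stood at 358, 291, 259, 215, 193, 185, 176, 180.4 and 182 FPKM from 0.0125 to 0.4% glucose. It stayed between 176 and 185 FPKM from 0.1 to 0.4% and higher at each step below, with a fitted change of 1.01 ± 0.15 (limma adjusted p = 0.000974). The phosphatase gene TPS2 stood at 153, 117, 104, 84.7, 70.8, 67.4, 70.0, 60.4 and 66.7 FPKM, a change of 1.24 ± 0.18 (limma adjusted p = 0.000853). Without the library at 0.0125%, the changes of TPS1 and TPS2 were 0.82 and 1.02, and both remained called.

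Among the trehalases, the acid trehalase gene ATH1 changed most, although from a low level. ATH1 stood at 25.1, 18.1, 16.0, 13.7, 11.7, 9.34, 11.5, 8.32 and 8.90 FPKM from 0.0125 to 0.4%, a change of 1.38 ± 0.19 (limma adjusted p = 0.000585). It scattered more than the other members, with a residual SD of 0.141 around its curve against 0.0224 to 0.0658 for the other 6. The neutral trehalase gene NTH1 stood at 103, 89.1, 87.3, 72.1, 69.8, 65.6, 62.9, 60.3 and 58.3 FPKM and was higher at each of the 8 steps down in glucose, with a change of 0.83 ± 0.08 (limma adjusted p = 0.00016). Its paralog NTH2 stood at 50.7, 50.1, 46.3, 46.6, 46.6, 43.2, 41.6, 37.8 and 36.6 FPKM, a change of 0.46 ± 0.07 (limma adjusted p = 0.000864).

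With glucose in percent as the scale in place of its logarithm, 0 of the 7 genes and 0 of all 6121 passed in limma. Before adjustment 1914 genes had a p under 0.05 with percent and 3317 with its logarithm, so the calls above belong to the log scale.

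By single libraries, the members differed in where along the range their difference fell, which was not tested. The interval from 0.1 down to 0.0125% covers 3 of the 5 doublings of glucose, and it held 98.8% of the log2 difference between the end libraries for TPS2, 97.4% for TPS1 and 95.4% for ATH1. The share was 85.7% for TSL1, 79.4% for NTH1 and 75.4% for TPS3. For NTH2 it was 49.4%, so about as much of its difference lay above 0.1% as below. Each share rests on the single libraries at 0.4, 0.1 and 0.0125%. ATH1 dipped at 0.1%, with 9.34 FPKM against 11.5 FPKM at 0.15% and 11.7 FPKM at 0.075%, which raises its share. The whole TPS3 difference was 0.22, beside steps of -0.09 from 0.4 to 0.2% and 0.15 from 0.2 to 0.15%. The step from 0.02 to 0.0125% was the largest step up for TPS1 (0.30 on the log2 scale), TPS2 (0.38), TSL1 (0.41) and ATH1 (0.45). For NTH1 the largest was from 0.05 to 0.025% (0.27). The steps are unequal in log2 glucose, the one from 0.02 to 0.0125% being narrower than the 1 doubling from 0.05 to 0.025%. Step sizes thus do not compare steepness, and NTH1 rose from 89.1 to 103 FPKM over the narrower step.

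A square term of log2 glucose was positive and significant for 4 of the 7 genes, against 8.68% of all genes, and it was negative and significant for 0 (7.38% of all genes). It was 0.060 ± 0.006 for TPS1 (limma adjusted p = 0.000938), 0.070 ± 0.010 for TPS2 (limma adjusted p = 0.00429), 0.061 ± 0.010 for TSL1 (limma adjusted p = 0.00772) and 0.025 ± 0.006 for NTH1 (limma adjusted p = 0.0295). TPS3 (limma adjusted p = 0.662), NTH2 (0.396) and ATH1 (0.115) were not called. Of these calls the one of TPS1 held without each library in turn. Without the library at 0.4% only TPS1 was called, and without the one at 0.0125% only TPS1 and TPS2, while ATH1 joined the others without the one at 0.15% (limma adjusted p = 0.0498). The call of NTH1 was also lost without the library at 0.1, 0.075 or 0.05% (limma adjusted p = 0.0622, 0.0611 and 0.0764) and under quantile normalization (0.0505).

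Ratios of FPKM within a library compare members directly and do not depend on a common scaling factor. The tested difference of log2(FPKM + 1) does depend on it through the pseudocount, most at low levels such as those of ATH1. TSL1 was 4.81 times TPS3 at 0.0125% and 2.04 times TPS3 at 0.4%, and the ratio was larger at every step down in glucose. Its change in the difference of log2(FPKM + 1) was 1.19 ± 0.16 (SE, n = 9 libraries; two-sided exact permutation p = 2.76e-06, 1.38e-05 adjusted over 5 pairs), and this is the smallest p that the 362880 orders of 9 libraries can give. NTH2 was 0.493 times NTH1 at 0.0125% and 0.628 times at 0.4%, a log2 change of -0.36 ± 0.12 (exact permutation p = 0.0171, adjusted 0.025). ATH1 was 0.244 times NTH1 at 0.0125% and 0.153 times at 0.4%, a change of 0.55 ± 0.16 (exact permutation p = 0.0102, adjusted 0.025). TPS2 was 0.427 times TPS1 at 0.0125% and 0.367 times at 0.4%, a change of 0.23 ± 0.08 (exact permutation p = 0.02, adjusted 0.025).

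The ratio of synthase to neutral trehalase, TPS1 over NTH1, was 3.48 at 0.0125% and 3.12 at 0.4%, with a lowest value of 2.77 at 0.075%. Its change of 0.18 ± 0.11 did not pass (exact permutation p = 0.134, also after adjustment), but without the library at 0.4% it was 0.32 and passed (exact permutation adjusted p = 0.0184). Of the 4 ratios that passed, TSL1 over TPS3 was the one still called without the library at 0.0125% (change 0.98), where the other 3 had an exact permutation adjusted p of 0.115. A pseudocount of 10 ended the calls of TPS2 over TPS1 (adjusted p = 0.0772) and ATH1 over NTH1 (adjusted p = 0.239, exact permutation), and glucose in percent as the scale ended all 4.

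**Figure D3:**
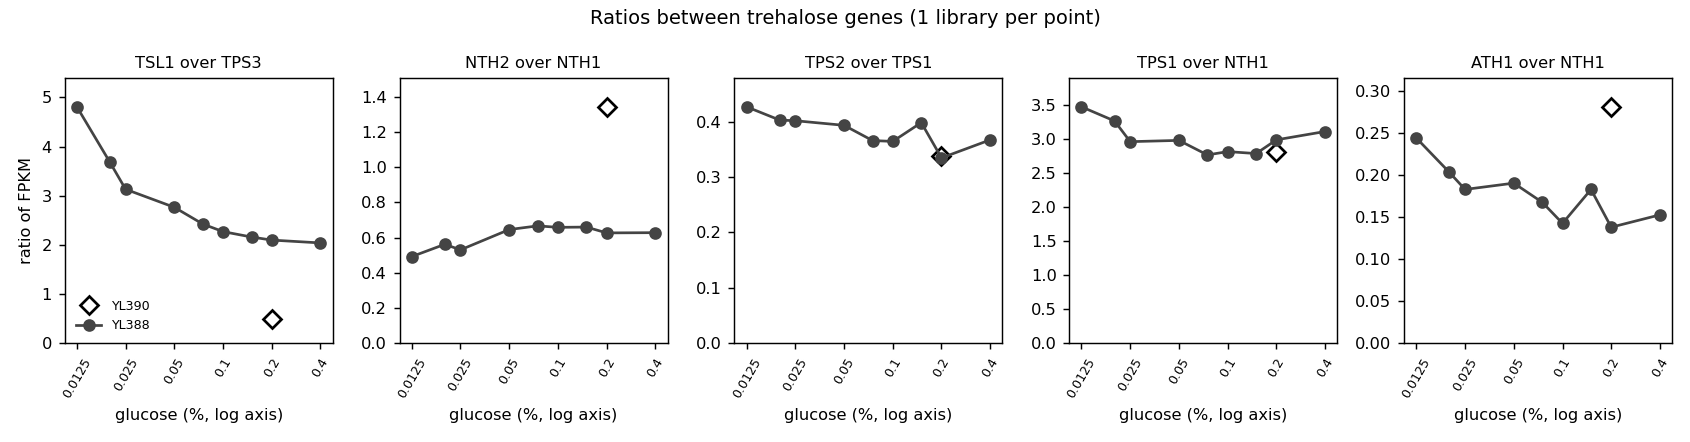
Ratio of FPKM between members (y axis, linear from 0) against glucose (x axis, percent, log axis), 1 library per point, with YL390 as an open diamond and YL388 as filled circles. TSL1 over TPS3 climbs to 4.81 at the lowest concentration, and the diamond lies outside the YL388 values for TSL1 over TPS3, NTH2 over NTH1 and ATH1 over NTH1.

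The YL390 library carried less of most trehalose transcripts than the YL388 library at the same glucose concentration, while NTH2 and ATH1 did not stand apart. TSL1 was at 9.51 FPKM in YL390 and at 59.1 FPKM in YL388 at 0.2% glucose, or 16.1% of the YL388 level. TPS1 was at 83.8 FPKM in YL390 and 180.4 FPKM in YL388, and TPS2 at 28.3 FPKM in YL390 and 60.4 FPKM in YL388. NTH1 was at 29.7 FPKM in YL390 and 60.3 FPKM in YL388, and TPS3 at 18.9 FPKM in YL390 and 28.1 FPKM in YL388. For these 5 genes all 9 YL388 libraries, at every glucose concentration, lay above the YL390 library, as was the case for 15% of all genes. NTH2 was at 40.0 FPKM in YL390 and 37.8 FPKM in YL388, and ATH1 at 8.36 FPKM in YL390 and 8.32 FPKM in YL388.

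On the log2(FPKM + 1) scale, TSL1, TPS1 and TPS2 were at least 2-fold lower in YL390 than in YL388 at 0.2% glucose, against 1.65% of 6120 genes, and 0 of the 7 were at least 2-fold higher (1.27% of genes). NTH1 missed this limit, with a difference of -0.99, only through the pseudocount of 1, since its FPKM in YL390 was 49.4% of that in YL388. It passed with a pseudocount of 0.1 (-1.02) or median-of-ratios scaling (-1.06), while TPS2 fell short of it with a pseudocount of 10 (-0.88). These differences are between 2 single libraries and have no replicate check.

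A fit over all 10 libraries held the curve of YL388 and a term for the distance of the YL390 library from it. The library lay below the curve for 5 of the 7 genes and above it for 0, against 2.81% and 0.85% of all genes. The term was -2.60 ± 0.07 for TSL1 (SE; limma adjusted p = 9.49e-07), the 34th lowest of 6120 genes. It was -1.15 ± 0.07 for TPS2 (limma adjusted p = 4.64e-05), -1.07 ± 0.04 for TPS1 (limma adjusted p = 3.09e-06), -1.01 ± 0.05 for NTH1 (limma adjusted p = 5.67e-06) and -0.64 ± 0.06 for TPS3 (limma adjusted p = 0.000846). For NTH2 it was 0.01 with a 95% interval of -0.14 to 0.15 (limma adjusted p = 0.984), and for ATH1 -0.13 with an interval of -0.48 to 0.21 (limma adjusted p = 0.79). The fit assumes that the YL390 library varies like the YL388 libraries, and it speaks of this library and not of the strain.

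The balance between paralogs in YL390 was the reverse of that in YL388. TSL1 was 0.503 times TPS3 in YL390 and 2.04 to 4.81 times TPS3 in the YL388 libraries. NTH2 was 1.34 times NTH1 in YL390 and 0.493 to 0.667 times NTH1 in the YL388 libraries. NTH2 was thus the second most abundant of the 7 transcripts in YL390, after TPS1, and the fifth in each YL388 library. ATH1 over NTH1 was also outside the YL388 range, at 0.281 in YL390 and 0.138 to 0.244 in YL388. In contrast, TPS2 over TPS1 (0.338 in YL390, 0.335 to 0.427 in YL388) and TPS1 over NTH1 (2.82 in YL390, 2.77 to 3.48 in YL388) were inside it. With 1 YL390 library these ratios were not tested.

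**Figure D4:**
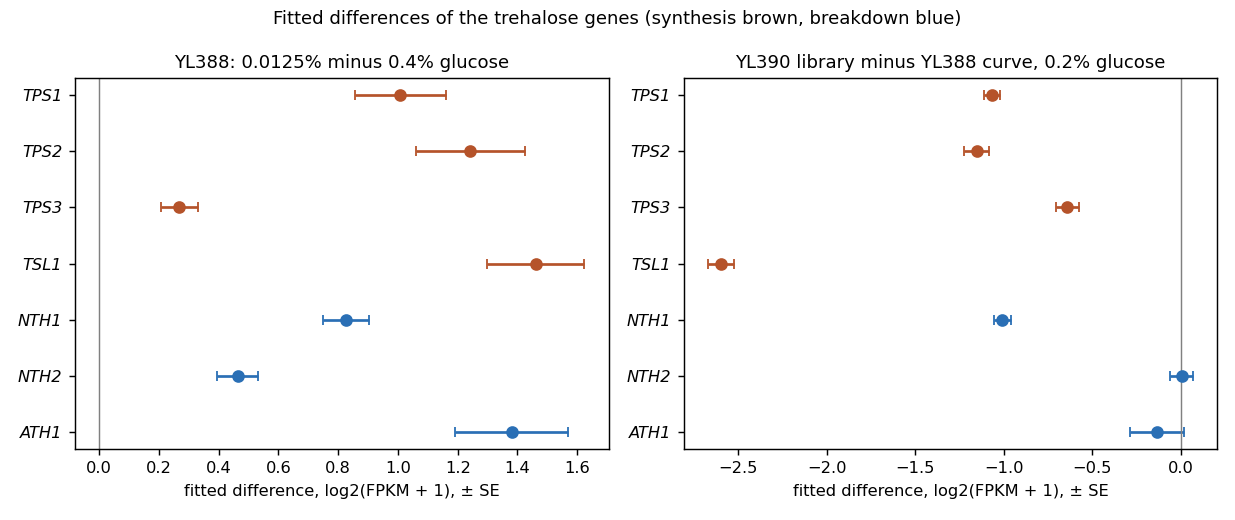
Fitted differences on the log2(FPKM + 1) scale with SE for each gene: at the left 0.0125% minus 0.4% glucose in 9 YL388 libraries, at the right the YL390 library minus the YL388 curve at 0.2% glucose. All 7 genes lie above 0 at the left, and at the right 5 lie between -2.60 and -0.64 while NTH2 and ATH1 lie near 0.

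Beside these values, the transcript of MSN2 was at 0.17 FPKM in YL390 and at 37.8 to 46.6 FPKM in the YL388 libraries. MSN2 was the regulator with the lowest term against the YL388 curve, at -5.18 ± 0.10 (limma adjusted p = 8.6e-08). MSN4 was low in both strains, at 1.63 FPKM in YL390 and 0.69 to 1.70 FPKM in YL388. The 5 genes called below the YL388 curve differed in their stress element matches in the narrower window. TSL1 and TPS1 had 5 each, NTH1 had 3, TPS3 had 2 and TPS2 had 1. Of the genes not called, ATH1 had 1 match, as TPS2 had, and NTH2 had 0. The order thus depends on the window, since TPS2 had 5 matches in the wider one. How matches relate to the YL390 values was not tested. The part of MSN2 in the differences of the trehalose genes was not tested.

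The genes nearest to each member in glucose profile were sought among 4774 candidate genes that overlap no other, by the root mean square difference of log2 profiles over the 9 YL388 libraries. Nearest to TSL1 were NNR2, a repair enzyme for hydrated NADH and NADPH (difference 0.050), HAP4, the activator of respiratory genes (0.058), and QCR10 of the respiratory chain (0.064). TPS1 was nearest to ARF2, a small GTPase of vesicle traffic (0.035), ATP3 of the ATP synthase (0.044) and the mitochondrial fission gene DNM1 (0.044). TPS2 was nearest to ETR1 of mitochondrial fatty acid synthesis (0.050), SDH5, an assembly factor of succinate dehydrogenase (0.052), and the vacuolar protease gene PRB1 (0.053). For TPS3 they were the histone deacetylase gene RPD3 (0.0215), TOM40 of mitochondrial import (0.027) and REG1, a phosphatase subunit of glucose repression (0.030).

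NTH1 was nearest to MRPL16 of the mitochondrial ribosome (0.038), BNA1 of NAD synthesis (0.039) and UPS2 of mitochondrial lipid transfer (0.040). NTH2 was nearest to the autophagy gene ATG38 (0.031), OSH2, a sterol-binding protein gene (0.044), and BZZ1 of actin patches (0.051). ATH1 was nearest to other genes of its own pathway, TSL1 (0.093) and TPS2 (0.096), and to the chaperone gene SSE2 (0.097). These differences were larger than those of the nearest genes of any other member, and ATH1 scattered most around its curve (residual SD 0.141). The order of its nearest genes was not tested. The YL390 terms of these nearest genes come from the same fit over all 10 libraries. Of the 9 nearest to TPS1, TPS2 and TPS3, 0 were called below the YL388 curve in limma. With 2.81% of all genes called below, 0 of 9 does not set these genes apart. Among the 9, 3 had an unadjusted limma p under 0.05 (903 of all 6120 did), and the terms of the 9 ran from -0.15 to 0.13. ARF2, for example, was at 910 FPKM in YL390 and 868 FPKM in YL388 at 0.2% glucose. All 3 nearest to TSL1, the synthesis gene not pooled in those 9, were called below the curve. Their terms were -0.49 for NNR2, -0.45 for HAP4 and -0.32 for QCR10 against -2.60 for TSL1. So were 2 of the 3 nearest to NTH1 (BNA1 and UPS2), 1 of the 3 nearest to NTH2 (OSH2, term -0.40) and, among those of ATH1, TSL1 and TPS2. BNA1 was at 82.3 FPKM in YL390 and 204 FPKM in YL388 (term -1.26, limma adjusted p = 3.48e-06).

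Genes that supply the sugar phosphates for trehalose mostly rose with falling glucose as well. Of 6, 5 rose and 0 fell, against 31.6% and 15.7% of all genes, with a median change of 1.40. The call of HXK2, a hexokinase gene, was marginal (change 0.29 ± 0.11, limma adjusted p = 0.0483). HXK2 was at 377 FPKM at 0.0125% glucose, against 352 FPKM at 0.4%, and its highest level, 451 FPKM, lay at a concentration between them. The hexokinase gene HXK1 was at 1791 FPKM at 0.0125% glucose, against 339 FPKM at 0.4% (change 2.70 ± 0.15, limma adjusted p = 4.5e-05). The glucokinase gene GLK1 was at 1506 FPKM at 0.0125%, against 289 FPKM at 0.4% (change 2.48 ± 0.25, limma adjusted p = 0.000219). The phosphoglucomutase gene PGM2 was at 170.4 FPKM at 0.0125%, against 44.4 FPKM at 0.4% (change 2.00 ± 0.21, limma adjusted p = 0.000224). Its minor isozyme gene PGM1 was not called, with 62.0 FPKM at 0.0125%, against 65.4 FPKM at 0.4% (limma adjusted p = 0.186). UGP1, which makes UDP-glucose, was at 476 FPKM at 0.0125%, against 287 FPKM at 0.4% (change 0.80 ± 0.11, limma adjusted p = 0.000703). HXK1, GLK1 and UGP1 overlap another gene in the files, and how the authors divided reads there is not given in the sources used here.

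In YL390, 4 of these 6 lay below the YL388 curve and 1 above, against 2.81% and 0.85% of all genes. HXK1 was at 69.3 FPKM in YL390 and 435 FPKM in YL388 at 0.2% glucose (term -2.66, limma adjusted p = 3.12e-05), close to the term of TSL1. GLK1, PGM2 and UGP1 had terms of -1.72, -1.19 and -0.44, and PGM1 had one of 0.39 (limma adjusted p = 0.0369).

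Regulators of the trehalases and of the synthase genes had a smaller median change. Of 9, 6 rose, 1 fell and 2 were not called (31.6% of all genes rose and 15.7% fell), with a median change of 0.53. The steepest was DCS2, the stress-induced paralog of the scavenger decapping enzyme gene DCS1, at 157 FPKM at 0.0125%, against 32.0 FPKM at 0.4% (change 2.27 ± 0.36, limma adjusted p = 0.00118). DCS1, which overlaps another gene in the files, came next, at 130.3 FPKM at 0.0125%, against 53.1 FPKM at 0.4% (change 1.16 ± 0.19, limma adjusted p = 0.00137). TPK3, a catalytic subunit gene of protein kinase A, fell to 57.7 FPKM at 0.0125%, against 78.3 FPKM at 0.4% (change -0.33 ± 0.09, limma adjusted p = 0.0154). Other subunit genes of that kinase went the opposite way, with changes of 0.90 ± 0.12 for TPK2, also catalytic, and 0.57 ± 0.10 for BCY1, the regulatory subunit (limma adjusted p = 0.000508 and 0.00217). The activators of Nth1, BMH1 and BMH2, changed by 0.36 ± 0.07 and 0.53 ± 0.07 (limma adjusted p = 0.0026 and 0.000396). BMH1 and BMH2 are close paralogs, as are ARF2 and ARF1, and how reads common to such a pair were assigned was not given. MSN2 (limma adjusted p = 0.3) and MSN4 (0.45) were the regulators not called. In YL390, MSN2, DCS2 (14.2 FPKM in YL390, 30.8 FPKM in YL388) and BMH1 (term -0.26) were below the curve and 0 of the 9 above, against 2.81% and 0.85% of all genes.

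Glycogen, the other reserve carbohydrate, draws on the same UDP-glucose. All 8 of its enzyme genes rose, against 31.6% of all genes, with a median change of 1.56, above the median of the trehalose genes. The branching enzyme gene GLC3 (2.30 ± 0.19) and the phosphorylase gene GPH1 (2.19 ± 0.19, overlapping another gene) were the steepest (limma adjusted p = 0.000114 and 0.000123). In YL390, 5 of the 8 were below the YL388 curve, against 2.81% of all genes, with a median term over the 8 of -0.77, beside -1.01 for the 7 trehalose genes. GPH1 was at 3.18 FPKM in YL390 and 28.6 FPKM in YL388, and the synthase gene GSY2 at 23.6 FPKM in YL390 and 67.6 FPKM in YL388.

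Of 4 genes for alpha-glucoside transport and protein protection, all 4 rose, against 31.6% of all genes, with a median change of 0.92. The stress protein gene HSP12 changed by 1.87 ± 0.29 (limma adjusted p = 0.000999) and MAL11, an alpha-glucoside transporter that takes up trehalose, by 0.98 ± 0.11 (limma adjusted p = 0.000333, overlapping another gene). HSP104, the disaggregase that works beside trehalose in heat-stressed cells, was at 192 FPKM at 0.0125%, against 91.4 FPKM at 0.4% (limma adjusted p = 0.00356). In YL390, HSP12 was below the curve (1777 FPKM in YL390, 14516 FPKM in YL388 at 0.2% glucose) and the other 3 were not called. Of all genes, 2.81% were called below the curve and 0.85% above it.

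**Figure D5:**
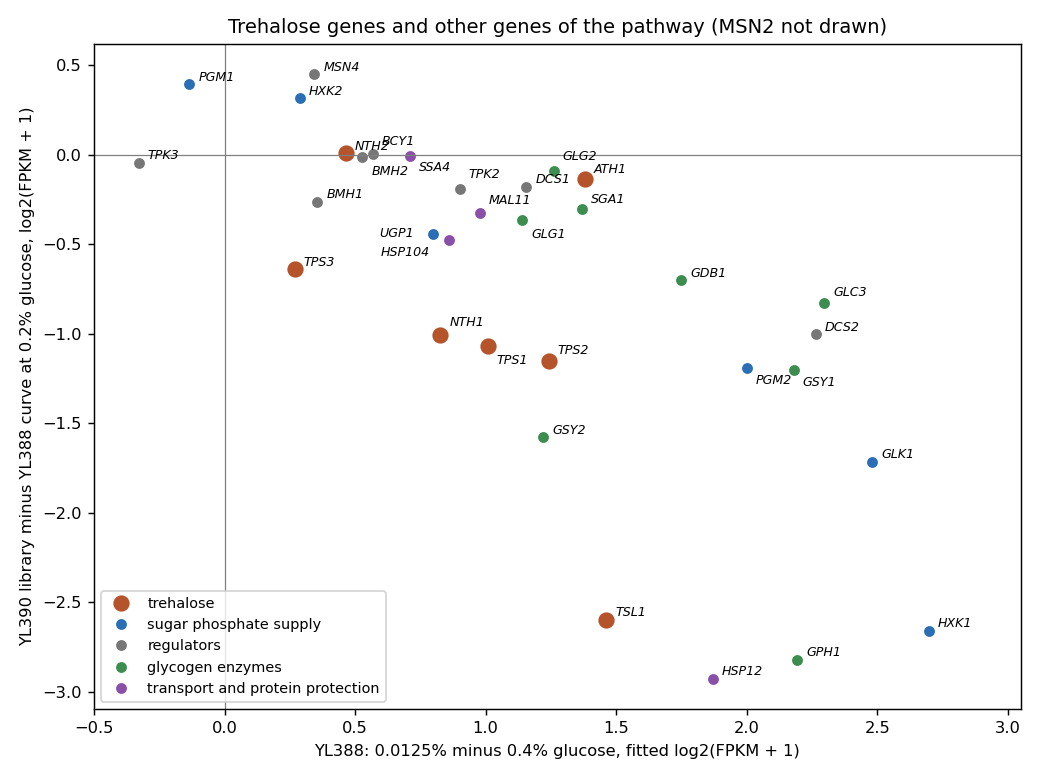
For each gene of the pathway lists, the YL390 term against the YL388 curve at 0.2% glucose (y axis) against the change from 0.4 to 0.0125% glucose in YL388 (x axis), both on the log2(FPKM + 1) scale, with trehalose genes as large points and MSN2 not drawn. TSL1, HXK1, GPH1 and HSP12 lie lowest, and ATH1 and NTH2 lie near 0 on the y axis at changes of 1.38 and 0.46.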

How the data were processed

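The 10 steady-state libraries of YL390 and YL388 were analysed, grouped by the strain and glucose concentration in their titles. The authors deposited FPKM with confidence bounds, in the layout of Cufflinks per the file headers. TopHat, Cufflinks, DESeq2 and the build sacCer3 appear in the submitters' processing notes. The annotation and the strand setting were not given in the sources used here. Of 6692 identifiers, 6008 matched R64 by systematic name. Depth was read from the bounds of non-overlapping genes longer than 1500 bp and above 50 fragments.

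The model, on log2(FPKM + 1) of genes averaging 1 FPKM or more, was limma 3.58.1 (R 4.3.3) with an intensity trend. P-values were adjusted over all genes by Benjamini-Hochberg, with a threshold of 0.05. Ratios of 5 pairs were tested by exact permutation of the 9 YL388 libraries. Scripts were tested on simulated data. The members and lists were chosen with earlier results of these data known. Named genes are the 7 members, the fixed pathway lists with the steepest 2 in each direction, and the 3 genes nearest in profile to each member, among genes averaging 10 FPKM or more, above 0 in all 9 libraries and overlapping no other gene. BNA1, ARF2 and GSY2 were picked for their YL390 values after these were seen. Alternatives were pseudocounts of 0.1 and 10, other filters, scalings and glucose scales, the centre of the bounds and leaving out each library. 1 further regulator is left out of all list counts and values and is not reported here.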

Additional observations from a re-analysis of the deposited data

How the results depend on the processing

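Each glucose change kept its direction under all 18 alternatives and stayed called under 17 for every gene but TPS3 (16). With glucose in percent, 0 members were called, with changes of 0.73 for TPS1, 0.91 for TPS2, 0.22 for TPS3, 1.15 for TSL1, 0.68 for NTH1, 0.46 for NTH2 and 1.10 for ATH1. Quantile normalization left TPS3 at 0.10. The deposited scaling called 1937 genes that rose and 958 that fell, median-of-ratios scaling 1406 and 1400, and quantile normalization 1213 and 1736.

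Leaving out each YL388 library in turn, the members called with a square term numbered 1 to 5 and the ratios called 1 to 5. Over all genes, 531 square terms above 0 and 452 below were called, against 198 and 175 without the library at 0.4%, 238 and 77 without 0.0125%, 306 and 175 without 0.075%, 322 and 193 without 0.05%, and 403 and 295 without 0.1%. TPS1 over NTH1 ranged from 0.072 to 0.32, NTH2 over NTH1 from -0.49 to -0.26, TPS2 over TPS1 from 0.18 to 0.30 and ATH1 over NTH1 from 0.42 to 0.67. With glucose in percent 0 ratios were called (TSL1 over TPS3 0.93, NTH2 over NTH1 -0.22, TPS2 over TPS1 0.18, ATH1 over NTH1 0.42), and with a pseudocount of 10 there were 2 (TPS2 over TPS1 0.16, ATH1 over NTH1 0.12). The cause was not tested.

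The YL390 term gave the same 5 calls under all 8 alternatives, with values of -2.71 to -1.89 for TSL1. A straight line in place of the curve called 64 genes below and 20 above it, against 172 and 52. The number of members at least 2-fold lower in YL390 at 0.2% ranged from 2 to 4. A pseudocount of 10 left 67 genes at least 2-fold lower and 45 higher, against 101 and 78. No paired analysis was possible because each group has 1 library.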
